A study of Mus musculus with 6 samples.

Results

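Dendritic cells are mononuclear phagocytes that take up antigen in tissues and present it to T cells. Conventional dendritic cells fall into the cDC1 class, which depends on the transcription factors BATF3 and IRF8 and presents antigen of dead cells to CD8 T cells, and the cDC2 class, which depends on IRF4 and mainly serves CD4 T cells. Plasmacytoid dendritic cells (pDC) form a further class, known for secretion of type I interferon. The integrin CD11B is carried by cDC2, monocytes, macrophages and granulocytes and is low or lacking on most cDC1. In the kidney, dendritic cells and macrophages share many surface proteins, so genes that are restricted to the dendritic lineage are few.

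The 10 genes described here mark these classes. Xcr1, Clec9a, Batf3 and Itgae are cDC1 genes, Flt3 and Zbtb46 are shared by conventional dendritic cells, Cd209a and Dpp4 are used for subsets of them, Ccr7 marks migratory cells and Siglech marks pDC. They were taken by symbol from the 46603 genes of a table of raw read counts, in which each of the 10 was found once. RNA-Seq was performed on CD11B+ cells separated with magnetic beads from the kidneys of 3 Cre- control and 3 PTEC DN RAR mice on day 3 after bilateral IRI-AKI, with 1 library per mouse. All 6 were males aged from 10 to 12 weeks with both renal pedicles clamped for 28 minutes. All carried the Rosa26-LSL-RARaT403X allele, a truncated RARα that inhibits the retinoic acid receptors once Cre has removed its stop cassette. The PTEC DN RAR mice (PEPCK CRE+) in addition expressed Cre from the PEPCK promoter, which is active in proximal tubular epithelial cells (PTECs), and the controls (PEPCK CRE-) did not. CD11B+ cells were not the intended target of the allele, which was bred to homozygosity. The Cre line came from a mixed 129svJ; C57BL/6 background and the receptor allele from C57BL/6.

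Between 29318041 and 46517005 reads were counted on genes per library, and 3 reads correspond to between 0.0645 and 0.102 CPM (counts per 1000000 counted reads) before scaling. Itgam, which encodes CD11B, measured from 1737 to 1995 CPM in Cre- control and from 980 to 1366 CPM in PTEC DN RAR libraries and fell by 0.64 on the log2 scale (standard error, SE, 0.14, edgeR adjusted p = 0.00818). Rara, the parent gene of the allele, measured from 35.3 to 45.4 CPM in Cre- control and from 30.7 to 37.6 CPM in PTEC DN RAR libraries, with no separate count for the transgene (log2 fold change -0.33, SE 0.13, edgeR adjusted p = 0.0628). Pck1, whose promoter drives Cre, measured from 23.6 to 42.8 CPM and from 130 to 278 CPM. Markers of kidney cells moved with genotype. All 16 proximal tubule markers, Pck1 among them, rose in PTEC DN RAR libraries, with a summed level from 892 to 1171 CPM in Cre- control and from 2918 to 4661 CPM in PTEC DN RAR libraries. All 12 endothelial markers rose, from a range of 176 to 239 CPM to a range of 448 to 547 CPM, whereas 7 of 8 markers of infiltrating monocytes fell, from a range of 3812 to 4113 CPM to a range of 1611 to 1673 CPM. Of the resident macrophage markers 1 of 10 rose and 3 fell, and their summed level overlapped between genotypes, from 14192 to 15633 CPM and from 13273 to 16628 CPM. Mitochondrial genes took 5.04% to 8.77% of counts in Cre- control and 10.4% to 12.1% in PTEC DN RAR libraries. The part of these shifts in the results that follow was not tested, and in these bulk libraries a change in the number of cells of a type and a change in RNA per cell cannot be told apart.

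The cDC1 genes Xcr1, Clec9a and Batf3 rose, as did Dpp4 and Siglech, and Ccr7 fell, whereas Flt3, Zbtb46, Cd209a and Itgae were not called. With the quasi-likelihood test of edgeR and a threshold of 0.05 on the adjusted p, 5 of the 10 genes rose in PTEC DN RAR libraries and 1 fell, against 23.6% and 17.1% of the 15440 genes tested across the table. In these 6 of the 10 genes the genotypes had no overlapping values, against 53.4% of all genes tested. The filter on low counts kept genes that reached 0.241 CPM in at least 3 libraries. All 10 genes lay above that level in each of the 6 libraries, so no gene entered the test through 1 genotype alone.

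**Figure D1:**
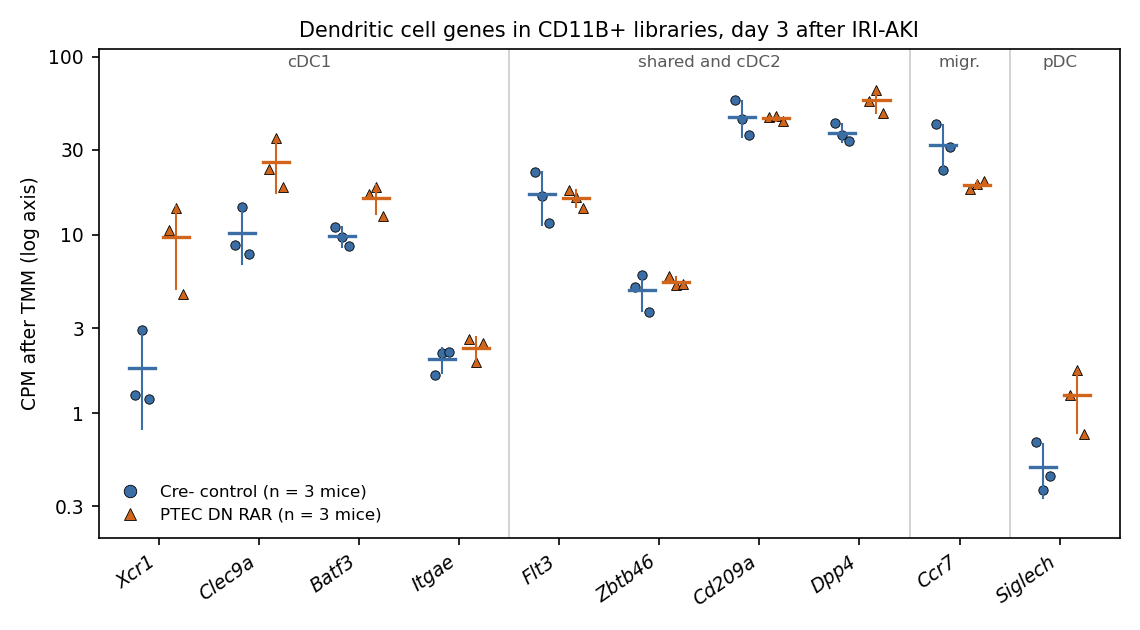
Level of each gene in CPM after TMM scaling on a log axis, by library, with the mean (horizontal line) and SD (vertical line) of 3 mice per genotype. PTEC DN RAR libraries lie above all Cre- control libraries for Xcr1, Clec9a, Batf3, Dpp4 and Siglech and below them for Ccr7, and the other 4 genes overlap.

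Xcr1 encodes the receptor for the chemokine XCL1 and is among the most restricted genes of cDC1. It lies on chromosome 9 of GRCm38 from 123852315 to 123862029 (ENSMUSG00000060509). The Cre- control libraries held 1.26, 2.92 and 1.20 CPM and the PTEC DN RAR libraries 10.6, 14.1 and 4.64 CPM, from 38 to 87 reads and from 219 to 599 reads respectively. Every PTEC DN RAR library was above every control, and the lowest of them, replicate 3, was nearest to the controls. The log2 fold change was 2.46 (SE 0.47, edgeR adjusted p = 0.00415), a 5.49-fold rise, and 0.991% of all genes tested had a larger one.

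Clec9a (ENSMUSG00000046080, chromosome 6 from 129408862 to 129424763) encodes DNGR-1, a C-type lectin through which cDC1 recognise actin exposed by dead cells. It measured 8.81, 14.3 and 7.82 CPM in Cre- control and 23.4, 34.9 and 18.6 CPM in PTEC DN RAR libraries, again without overlap. The log2 fold change was 1.31 (SE 0.28, edgeR adjusted p = 0.00684), a 2.49-fold rise. Its exons share 184 bases with Clec1b on the same strand, where a read may fit both genes. In both genotypes replicate 2 had the highest values of Xcr1 and of Clec9a and replicate 3 the lowest, and the deviations of the pair from the genotype means had a correlation of 0.95 over 6 libraries made by the same protocol, given as a description without a test. Such correlations did not follow the classes: Batf3 had 0.65 with Xcr1 and 0.60 with Clec9a, but 0.97 with Dpp4 and 0.89 with Siglech, and Dpp4 had 0.93 with Siglech.

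The 250 bases before the annotated start are shown for Xcr1 and Clec9a, the cDC1 receptors that rose, and, for contrast, for Cd209a, a lectin gene that was not called. They are RefSeq sequences on GRCm38.p6, all written 5′ to 3′ on the strand of the gene, from chr9:123862030-123862279 (minus strand), chr6:129408612-129408861 (plus strand) and chr8:3748985-3749234 (minus strand). Capitals mark matches to AANNGAAA on either strand, the core bound by interferon regulatory factors such as IRF4 and IRF8.
Xcr1: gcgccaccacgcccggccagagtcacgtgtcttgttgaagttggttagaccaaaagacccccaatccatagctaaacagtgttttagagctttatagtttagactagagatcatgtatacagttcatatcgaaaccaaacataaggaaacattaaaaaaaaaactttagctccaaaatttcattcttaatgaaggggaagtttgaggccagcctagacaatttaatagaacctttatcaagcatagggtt
Clec9a: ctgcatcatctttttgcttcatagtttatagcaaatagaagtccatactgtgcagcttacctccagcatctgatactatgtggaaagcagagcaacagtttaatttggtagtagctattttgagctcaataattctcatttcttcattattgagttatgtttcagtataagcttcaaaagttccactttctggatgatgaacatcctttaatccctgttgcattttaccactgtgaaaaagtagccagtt
Cd209a: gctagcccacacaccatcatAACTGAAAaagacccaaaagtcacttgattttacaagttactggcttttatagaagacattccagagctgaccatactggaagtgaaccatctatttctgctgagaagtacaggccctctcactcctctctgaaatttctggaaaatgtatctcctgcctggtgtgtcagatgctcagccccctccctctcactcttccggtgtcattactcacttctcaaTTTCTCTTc
The window of Cd209a held 2 matches, beginning 230 and 9 bases before the start, and those of Xcr1 and Clec9a held none, which says only that these letters are not in these windows. A match to AANNGAAA was found in 21.3% of all 32851 RefSeq windows of this length. RefSeq windows were found for 8 of the 10 genes, all but Itgae and Ccr7, and 2 of the 8 held AANNGAAA, Cd209a, which was not called, and Dpp4, which rose. The AP-1 motif TGANTCA, bound by JUN proteins with BATF3, was found in 1 of the 8 (Zbtb46) and in 6.75% of all windows. The half-site of retinoic acid receptors, AGGTCA, was found in 1 of the 8 (Zbtb46 again) and in 14% of all windows, and GAGGAA, a core of PU.1, in 2 of the 8 (Batf3 and Dpp4) and in 23.3% of all windows. The RefSeq window of Zbtb46, from 181424389 to 181424638 on the minus strand, lies inside the GENCODE span of the gene, whose 5′ end is 181459426. Its AP-1 and AGGTCA matches are therefore not before that start. The Batf3 window, from 191098164 to 191098413 on the plus strand, likewise lies inside a span that begins at 191097847.

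Batf3 encodes the basic leucine zipper factor required for the cDC1 lineage in most tissues (ENSMUSG00000026630, chromosome 1 from 191097847 to 191108945). Cre- control libraries measured 11.1, 9.76 and 8.62 CPM and PTEC DN RAR libraries 17, 18.6 and 12.8 CPM. The groups did not overlap, and the log2 fold change was 0.71 (SE 0.17, edgeR adjusted p = 0.0107). Without Cre- control replicate 3 it was 0.58 with an edgeR adjusted p of 0.0572, which ends the call. Itgae (ENSMUSG00000005947, chromosome 11 from 73090583 to 73147446) encodes CD103, the integrin αE chain, which pairs with β7 to bind E-cadherin and is carried by cDC1 of many tissues and by tissue T cells. Its values of 1.64, 2.18 and 2.19 CPM in Cre- control and 2.60, 1.93 and 2.46 CPM in PTEC DN RAR libraries overlapped, with a log2 fold change of 0.22 (SE 0.23, edgeR adjusted p = 0.466). The 4 cDC1 genes thus gave log2 fold changes from 0.22 to 2.46, with a median of 1.01 against 0.04 over all genes tested.

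Flt3, the receptor for the cytokine FLT3L on which dendritic cell development depends, measured 22.6, 16.5 and 11.6 CPM in Cre- control and 17.8, 16.4 and 14.2 CPM in PTEC DN RAR libraries (ENSMUSG00000042817, chromosome 5 from 147330741 to 147400489). The PTEC DN RAR values lay inside the range of the controls, and the log2 fold change was -0.07 (SE 0.22, edgeR adjusted p = 0.822). Zbtb46 encodes a zinc finger repressor of conventional dendritic cells that endothelium also expresses (ENSMUSG00000027583, chromosome 2 from 181387762 to 181459426). It measured 5.10, 5.94 and 3.67 CPM and then 5.85, 5.26 and 5.28 CPM, with a log2 fold change of 0.16 (SE 0.20, edgeR adjusted p = 0.558). Endothelial markers rose in these same libraries, by log2 fold changes from 0.63 to 1.61, and Zbtb46 was not called beside them.

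Cd209a, which encodes a C-type lectin of the DC-SIGN family found on cDC2 and monocyte-derived cells, had the highest level per exon length of the 10 genes (ENSMUSG00000031494, chromosome 8 from 3743397 to 3748984). It measured 57.4, 44.4 and 36.3 CPM in Cre- control and 45.8, 46.3 and 43.5 CPM in PTEC DN RAR libraries, which overlapped (log2 fold change -0.03, SE 0.15, edgeR adjusted p = 0.904). Related Cd209 genes lie beside it, and reads that aligned to more than 1 of them were not counted. Dpp4, the gene of the peptidase CD26 (ENSMUSG00000035000, chromosome 2 from 62330073 to 62412231), is carried by cDC1 and some T cells and also by the proximal tubule brush border. It was grouped with the shared and cDC2 genes in the figures and was not counted among the cDC1 genes above. Its values were 42.3, 36.5 and 33.7 CPM in Cre- control and 56.7, 65.1 and 48.5 CPM in PTEC DN RAR libraries, without overlap. The log2 fold change of 0.60 (SE 0.13, edgeR adjusted p = 0.00735) stood beside a median of 1.86 for the 16 proximal tubule markers, all higher. The share of Dpp4 reads from tubule cells was not tested, and 232 bases of its exons lie opposite the gene Gm13561, whose reads cannot be told apart where strand was not used in counting.

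Ccr7 encodes the receptor for CCL19 and CCL21 that guides mature dendritic cells and naive T cells to lymph nodes (ENSMUSG00000037944, chromosome 11 from 99144196 to 99155077). It was the only one of the 10 genes that fell, from 41.7, 23.0 and 31.0 CPM in Cre- control to 18.1, 19.2 and 20.0 CPM in PTEC DN RAR libraries. The PTEC DN RAR values lay close together below all controls, with replicate 1 of the controls highest. The log2 fold change was -0.74 (SE 0.19, edgeR adjusted p = 0.0149). When libraries were scaled on pan-leukocyte genes in place of TMM it was -0.53 with an adjusted p of 0.0801 by edgeR, which ends the call. Siglech encodes a sialic acid binding receptor that signals through DAP12 on pDC and is also found on some macrophages (ENSMUSG00000051504, chromosome 7 from 55768178 to 55778925). It was the lowest of the 10 genes, with 27, 11 and 14 reads or 0.692, 0.369 and 0.443 CPM in Cre- control and 53, 74 and 36 reads or 1.27, 1.74 and 0.763 CPM in PTEC DN RAR libraries. The lowest PTEC DN RAR value, 0.763 CPM, was just above the highest control. The log2 difference was 1.30, level with that of Clec9a (SE 0.40, edgeR adjusted p = 0.0314), and the call was lost without Cre- control replicate 2 or 3 or without PTEC DN RAR replicate 1 or 2 (log2 fold changes of 1.09, 1.17, 1.29 and 0.99, with edgeR adjusted p from 0.0716 to 0.111).

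**Figure D2:**
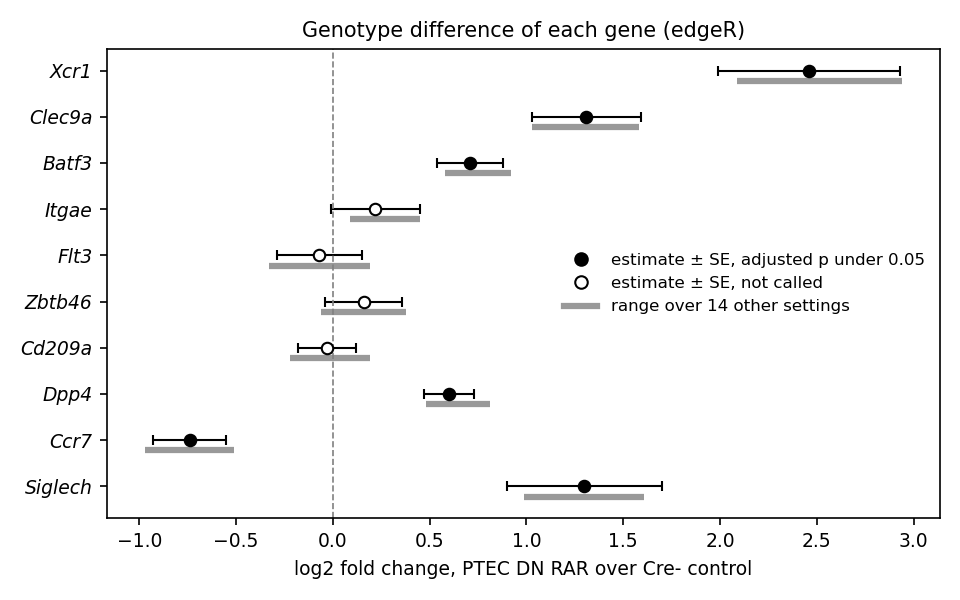
Log2 fold change of each gene with its standard error from edgeR's quasi-likelihood test, and the range over 14 other settings (grey bars). Xcr1 at 2.46 and Clec9a at 1.31 lie to the right of 0 in all settings shown, Ccr7 at -0.74 lies to the left, and the ranges of Flt3, Zbtb46 and Cd209a cross 0.

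On the scale of CPM per 1000 bases of exon (RPKM, with exons joined over transcripts of GENCODE M21), the order in Cre- controls was Cd209a at 29.1, Ccr7 at 16.1, Batf3 at 6.16, Dpp4 at 5.94, Clec9a at 3.13, Flt3 at 2.74, Zbtb46 at 0.576, Itgae at 0.437, Xcr1 at 0.403 and Siglech at 0.148 RPKM. Libraries of neighbours in this order overlapped between Batf3 and Dpp4, between Clec9a and Flt3, and from Zbtb46 through Itgae to Xcr1. In PTEC DN RAR libraries Cd209a at 28.6 RPKM was still first, followed by Batf3 at 10.1, Ccr7 at 9.64, Dpp4 at 8.99 and Clec9a at 7.78 RPKM, whose libraries overlapped from each to the next. Xcr1 stood ninth in Cre- controls and, at 2.19 RPKM, overlapped Flt3 at 2.61 RPKM in PTEC DN RAR libraries.

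A ratio of reads of 2 genes within a library does not depend on how libraries are scaled. The ratios to Flt3 were chosen after the values had been seen and carry no test. Reads of Xcr1 per Flt3 read were 0.0556, 0.176 and 0.104 in Cre- control and 0.594, 0.858 and 0.327 in PTEC DN RAR libraries. For Clec9a the ratios were 0.390, 0.864 and 0.675 against 1.32, 2.12 and 1.31. Both ratios separated the genotypes fully, with means that differed by 2.45 and 1.33 on the log2 scale. For Cd209a, the ratios of 2.54, 2.68 and 3.13 and then 2.58, 2.82 and 3.06 overlapped, with a difference of 0.02 on the log2 scale, and the deviations of Cd209a and Flt3 from their genotype means had a correlation of 0.97 over 6 libraries. Ccr7 gave 1.85, 1.39 and 2.67 against 1.02, 1.16 and 1.41, which overlapped by a narrow margin. Reads of Xcr1 per Clec9a read were 0.142, 0.204 and 0.154 in Cre- control and 0.451, 0.405 and 0.250 in PTEC DN RAR libraries, also without overlap.

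**Figure D3:**
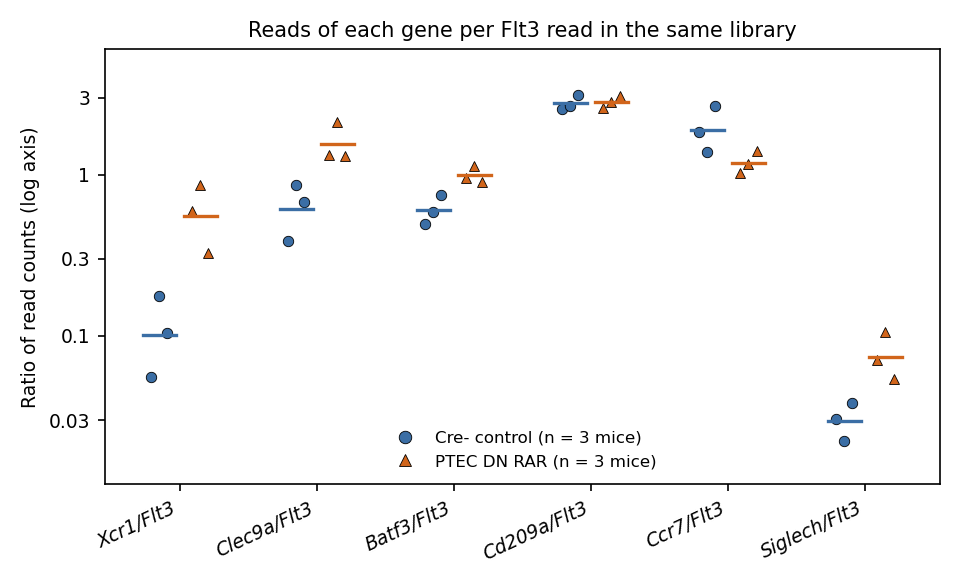
Reads of 6 genes per Flt3 read in the same library on a log axis, with the geometric mean of 3 mice per genotype (line). Xcr1, Clec9a, Batf3 and Siglech ratios are higher in all PTEC DN RAR libraries than in all controls, while those of Cd209a and Ccr7 overlap.

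Further genes of the same cell classes were taken from 5 lists of 88 genes, of which 84 were tested. Of these, 21 rose and 11 fell (edgeR adjusted p under 0.05), which is 25% and 13.1% of them against 23.6% and 17.1% of all genes tested, and their median log2 fold change was 0.09 against 0.04. Many of these genes are also expressed by macrophages, whose markers dominate these libraries. Both shares were near those of the whole table, and the 21 include 2 genes, Clnk and Dtx1, that passed the filter on low counts only through the PTEC DN RAR libraries.

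Of 15 other cDC1 genes 2 rose and 2 fell, with a median log2 fold change of -0.07. The most abundant were Ppt1, a lysosomal thioesterase, with a log2 fold change of 0.04 (SE 0.11), Irf8, the factor that sets the cDC1 lineage and is also used by macrophages, at -0.07 (SE 0.08), and Wdfy4, required for cross-presentation, at -0.25 (SE 0.13), and none of these passed the test. The genes that moved are named because they are few and were chosen after their values were seen. Cadm1, an adhesion protein of cDC1 that epithelia also carry, rose from 103, 173 and 121 CPM to 272, 322 and 202 CPM (log2 fold change 1.01, adjusted p = 0.00706 by edgeR), with replicate 2 highest in both genotypes, as for Clec9a. Clnk, an adaptor protein and the other gene called higher, had 6, 3 and 5 reads in Cre- control and 26, 15 and 46 reads in PTEC DN RAR libraries. It passed the filter on low counts only through the PTEC DN RAR libraries, so it had to differ, and its call carries no weight. Rab7b, a late endosomal GTPase, fell by 0.52 and Ifi205, an interferon-inducible gene with close paralogs, fell by 0.95 on the log2 scale.

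Among the other cDC2 genes 2 of 17 tested rose and 3 fell, with a median log2 fold change of -0.09. Sirpa, the receptor for the CD47 signal, measured from 1420 to 1506 CPM in Cre- control and from 1127 to 1260 CPM in PTEC DN RAR libraries and fell by 0.31 (SE 0.10, edgeR adjusted p = 0.0332). Zeb2, a repressor of the cDC1 fate that is also high in monocytes and macrophages, fell by 0.56 (SE 0.10, edgeR adjusted p = 0.00296), and Clec12a, an inhibitory lectin, was not called at -0.05. Tnip3, an inhibitor of NF-κB signaling, was the third that fell, at -1.17, while Esam, an adhesion protein of cDC2 that endothelium also carries, rose by 1.65. Dtx1, a Notch pathway gene and the other called higher, had 4, 2 and 3 reads in Cre- control and 22, 15 and 19 reads in PTEC DN RAR libraries and, like Clnk, passed the filter only through the latter. Tnip3, Esam and Dtx1 were chosen after their values were seen. Irf4, the lineage factor, was not called at -0.09.

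In the list of other genes shared by conventional dendritic cells 6 of 14 rose and 2 fell, with a median of 0.23. Itgax, which encodes CD11C, measured 245, 312 and 230 CPM in Cre- control and 342, 367 and 246 CPM in PTEC DN RAR libraries, which overlapped (log2 fold change 0.28, SE 0.17, edgeR adjusted p = 0.215). Ciita, the activator of MHC class II genes, rose from 184, 228 and 181 CPM to 358, 361 and 290 CPM (log2 fold change 0.77, SE 0.13, edgeR adjusted p = 0.0023). Csf2ra, the GM-CSF receptor α chain, rose by 0.39. The other 4 that rose were Spint2, a protease inhibitor that epithelia also make, at 1.43, Kit, a receptor tyrosine kinase, at 1.03, Slamf7 at 0.68 and Mycl, a MYC family factor, at 0.55. The 2 that fell were Amica1, an adhesion protein, at -0.84 and P2ry10, a lysophospholipid receptor, at -0.71, and these 6 were named after their values were seen.

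Of the 22 tested genes of migratory and mature dendritic cells 7 rose, 3 fell and 12 were not called, against 23.6% higher and 17.1% lower of all genes tested. Their median was 0.14, while Ccr7 itself fell. Cd83, a maturation marker that activated macrophages share, fell by 0.35 (SE 0.09, edgeR adjusted p = 0.0139), from a range of 536 to 571 CPM to a range of 408 to 453 CPM. Tmem123 at -0.02 and Marcksl1, an actin regulator, at -0.20 were not called. Chosen after their values were seen, the other genes that fell were Cd274, which encodes PD-L1, at -0.48 and Samsn1 at -0.56. The 7 that rose, chosen likewise, were Apol7c at 1.52, Fscn1, the actin bundler of mature dendritic cells, at 1.25, Cd200 at 1.09, Cacnb3 at 0.98, Il4i1 at 0.92, Pdcd1lg2, which encodes the other PD-1 ligand PD-L2, at 0.83 and Il15ra at 0.44. Fscn1 measured 5.92, 8.22 and 5.45 CPM in Cre- control and 16.7, 18.2 and 11.6 CPM in PTEC DN RAR libraries.

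Of 17 tested pDC genes 4 rose and 1 fell, with a median of 0.18. Tlr7, a sensor of RNA that macrophages also carry, fell by 0.47 (SE 0.10, edgeR adjusted p = 0.00686), and Irf7, the interferon-inducing factor, was not called at -0.42 (SE 0.30). Atp1b1, a subunit of the sodium pump and abundant in kidney tubules, rose by 1.84. The other 3 that rose, chosen after their values were seen, were Klk1, a kallikrein that distal tubules also make, at 1.53, Smim5 at 1.62 and Lag3 at 1.68 on the log2 scale. Lag3, a receptor for MHC class II, rose from 3.38, 3.56 and 2.38 CPM to 8.84, 14.6 and 6.53 CPM, with PTEC DN RAR replicate 2 highest, as for Siglech. That library was also the highest for Xcr1, Clec9a, Batf3, Dpp4 and the tubule gene Pck1, so this order is not particular to pDC genes. Tubule markers rose in the same libraries, and the part of tubule RNA in Atp1b1 and Klk1 was not tested. The pDC factors Tcf4, at -0.23, and Spib, at 0.40, also chosen after their values were seen, were not called.

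**Figure D4:**
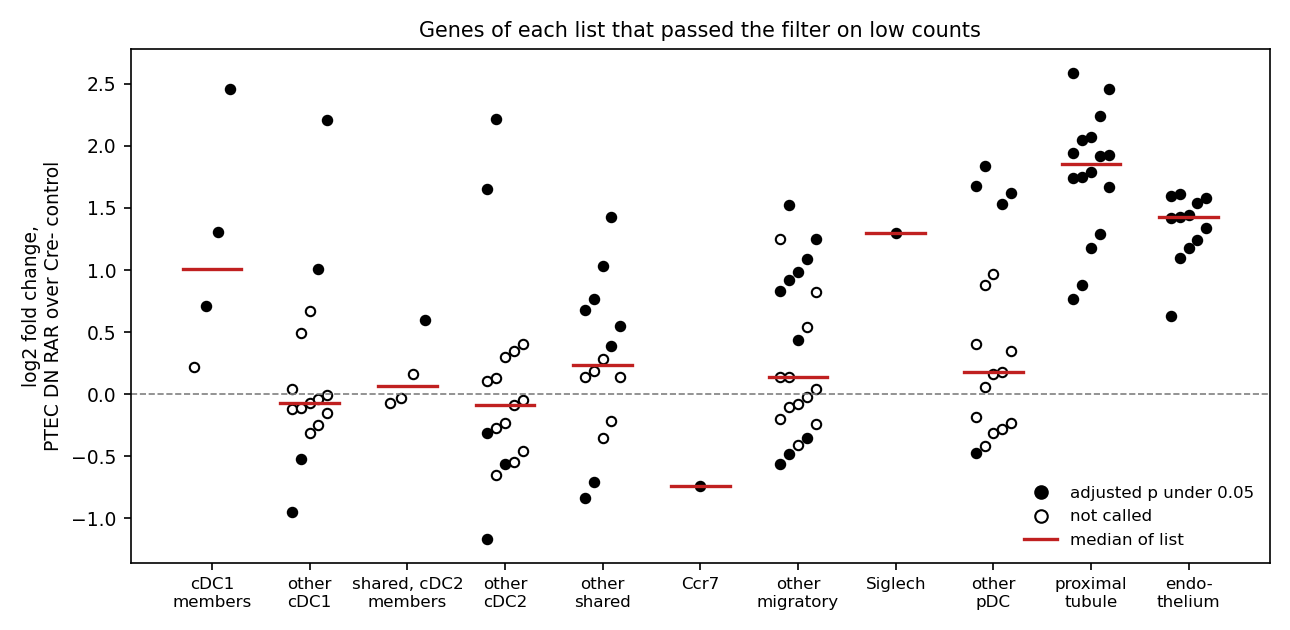
Log2 fold change of every gene that passed the filter on low counts, by list, with called genes filled, other genes open and the median of each list in red. The cDC1 genes described here reach 2.46 and have a median of 1.01, the 15 other cDC1 genes have a median of -0.07, and all proximal tubule and endothelial markers lie above 0.

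The list of ligands and partners of the 10 genes held 17, of which 14 were tested, with 1 higher and 6 lower, against 23.6% and 17.1% of all genes tested. The 3 genes not tested had low counts. Xcl1, which encodes the ligand of XCR1, did not pass the filter, with 1 library above its level and a range of 0 to 0.302 CPM, Ccl19 gave reads in 1 library only, and Ccl21a had no counted read in any library, which allows up to 3 counted reads in each. Reads that aligned to more than 1 place were not counted, so the 0 of Ccl21a covers uniquely aligned reads only and does not bound its expression. Flt3l, the ligand of FLT3, measured from 3.96 to 5.07 CPM in Cre- control and from 3.92 to 4.17 CPM in PTEC DN RAR libraries and was not called (log2 fold change -0.11, SE 0.17). Itgb7, the β7 partner of the Itgae product, fell by 0.50, and Cdh1, which encodes E-cadherin and is an epithelial gene, rose by 0.95. Of the partners of BATF3, Junb fell by 0.47 and Jun by 0.38, while Jund at 0.20, Irf4 and Irf8 were not called. Nfil3, which acts upstream in development of cDC1, fell by 1.33 (SE 0.16, edgeR adjusted p = 0.000707), from 146, 108 and 147 CPM to 49.2, 45.7 and 65.2 CPM, without overlap. Id2, which sets the cDC1 fate by restraining E proteins, was not called at -0.15. Tyrobp, which encodes DAP12, the adaptor of the Siglech product, was not called at -0.26, Syk, which transmits signals of CLEC9A, fell by 0.26, Ada, which binds CD26, fell by 0.46, and Icam2 at -0.51 was not called.

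Lymphocytes can carry Itgae, Ccr7 and Dpp4, and their part in these levels was not tested. The markers named here were chosen after their values were seen. Of 12 T cell markers 9 were tested, of which 2 rose and 1 fell (Trac, 1 of the 2, passed the filter only through the PTEC DN RAR libraries), and the summed level of the list was from 50.7 to 77.1 CPM in Cre- control and from 89.6 to 112 CPM in PTEC DN RAR libraries. Most of it was Cd4, which myeloid cells also express, at 41.6, 69.4 and 54.6 CPM and then 94.0, 82.5 and 107 CPM. The T cell receptor component Cd3e did not pass the filter, with 2 libraries above its level, at 0.231, 0.101 and 0.190 CPM and then 0.717, 0.613 and 0.0424 CPM, and no marker of the list was at 0 in all libraries. The 5 tested NK cell markers had edgeR adjusted p from 0.159 to 0.871 and the 8 of the list summed to 13.2 to 25.4 CPM in Cre- control and 14.7 to 16.7 CPM in PTEC DN RAR libraries. In the B cell list, which summed to 416 to 526 CPM in Cre- control and 520 to 789 CPM in PTEC DN RAR libraries, 3 of 6 tested markers rose. Of 10 neutrophil markers 5 fell and the other 5 were not called, with a summed level from 471 to 849 CPM and from 299 to 426 CPM.

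The genes whose profiles over the 6 libraries lay nearest to each called gene were found by Euclidean distance between log2 CPM values centred on their mean. For Clec9a these were Dnase1l3, a secreted DNase, at a distance of 0.23 and Serpine2, a protease inhibitor, at 0.29, with log2 fold changes of 1.30 and 1.36. Dnase1l3 was the more abundant, with a mean of 38.1 CPM. For Xcr1 no gene lay as near, with Cck at 0.70 and Ighj4 at 0.84, both under 1 CPM on average. Cck had a mean of 0.353 CPM and a log2 fold change of 3.34, which puts its controls below the filter level of 0.241 CPM. It thus passed the filter only through the PTEC DN RAR libraries and had to differ. Mink1 and Chst7 were nearest to Batf3 (0.17 and 0.18), Usp35 and Adck5 to Dpp4 (0.10 and 0.15), the pseudogene Rpl36a-ps2 and Sdc1 to Ccr7 (0.24 and 0.28), and Tcf21 and E230001N04Rik to Siglech (0.37 and 0.40). These distances describe the 6 libraries and carry no test.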

How the data were processed

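RNA-Seq libraries were made from polyA RNA of CD11B+ kidney cells of 6 mice. The authors deposited raw read counts per Ensembl gene, without normalization. The submitters' processing notes name STAR 2.5.0a, HTSeq 0.6.1, edgeR, limma and GRCm38, and the strand setting and annotation release are not given in the sources used here. Summary lines of the table were left out of library sizes. From 42.93% to 47.75% of alignments per library were not unique and are not in the gene counts, which lowers genes with close copies. After 9 repeated lines were collapsed, 46603 genes remained.

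Genotypes were compared, 3 mice against 3, by the quasi-likelihood test of edgeR 4.0.16 in R 4.3.3, after the filterByExpr filter and TMM scaling, with Benjamini-Hochberg adjustment over 15440 genes. With 1 library per mouse, p-values measure the spread between mice. Standard errors are the log2 fold change divided by the square root of F. CPM are after TMM. Correlations and distances used log2 CPM with a prior count of 2. Alternatives used DESeq2 1.42.0 and limma 3.58.1, other scalings and filters, the replicate number as a block, and each library left out. The test was tried on simulated counts first. Within a genotype, libraries differed by at least 27.1 chi-square units per degree of freedom, so none was counted as a repeat. Floors of counts cover counting error only, whereas the standard errors include the spread between mice.

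The genes, the lists and the tests were chosen with earlier results of these data known. Named are all 10 genes, the 3 most abundant tested genes of each further dendritic cell list, the ligands and partners (the rule covered those tested, and the 3 others were added), the 2 nearest profiles of each called gene, Rara and Pck1, Itgam as a check of the sort, added to the rule, and others where marked as chosen after their values were seen. Coordinates and exon lengths are from GENCODE M21 on GRCm38. Motifs were searched on both strands, and matches of different motifs may overlap. Tables and figures were made with Python 3.11.15, pandas 2.3.3 and matplotlib 3.10.9.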

Additional observations from a re-analysis of the deposited data

How the results depend on the processing

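Of the 10 genes, Xcr1, Clec9a and Dpp4 kept their call and direction under all 14 alternatives, with log2 fold changes from 2.09 to 2.94, from 1.03 to 1.58 and from 0.48 to 0.81, and Itgae was not called under any (0.09 to 0.45). Scaling on pan-leukocyte genes, of which 7 of 24 tested were lower in PTEC DN RAR libraries, moved the median of all log2 fold changes from 0.04 to 0.25. Under it 0 of the 10 genes were called lower, 702 genes were lower across the table, against 2636, and 87.5% of calls were higher, against 58.0% with TMM. Beside that count of 0, 1 gene, Ccr7, was lower at an unadjusted p under 0.05 by edgeR (log2 fold change -0.53, edgeR adjusted p 0.0801). DESeq2 with its own scaling and limma-voom with the same TMM scaling as the main test each called 1 gene lower. Flt3 and Cd209a, not called under any setting, turned to 0.14 and 0.19 with this scaling. With each library left out in turn, the number of the 10 called higher was between 3 and 5, lowest without Cre- control replicate 3, where genes called higher across the table were also fewest, 2433 against 3640, and where the calls of Batf3 (0.58, adjusted p = 0.0572 by edgeR) and Siglech were lost. Flt3 ranged from -0.33 to 0.19, Cd209a from -0.22 to 0.16 and Zbtb46 from -0.06 to 0.27, with the sign turned without Cre- control replicate 1 for Flt3 and Cd209a and without replicate 3 for Zbtb46. Same-numbered libraries of the genotypes had correlations of -0.0147, 0.211 and 0.0286 between their deviations, and not every library correlated best with its own number, so they share only a number. With the replicate block 6 of the 10 genes were called, the same number as without it, and 6218 genes across the table against 6276. DESeq2 called 6826 genes and limma-voom 6155, and each called 6 of the 10. Siglech, which rests on 11 to 74 reads per library, was above Clec9a without Cre- control replicate 1 (1.61 against 1.21), Cre- control replicate 3 (1.17 against 1.11) or PTEC DN RAR replicate 3 (1.52 against 1.46), so their order is not settled.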
